A study of Petunia x hybrida with 48 samples.

Results

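NAP and KIN10 are 2 petunia genes whose Arabidopsis counterparts act when tissue ages or runs short of energy. They were chosen by identifier, Peaxi162Scf00222g00624.1 for NAP and Peaxi162Scf00222g00912.1 for the KIN10 homolog, and both were present in the tables of both experiments, out of 34301 genes in experiment 1 and 32830 in experiment 3. In Arabidopsis, NAP is a NAC transcription factor that promotes leaf senescence and acts together with the stress hormone abscisic acid (ABA). KIN10 is the catalytic alpha subunit of SnRK1, a protein kinase that is active when carbon or energy is scarce and that slows growth and switches on the use of reserves. Trehalose-6-phosphate, a sugar signal made by trehalose-phosphate synthase, inhibits SnRK1 in plants. Genes linked with ABA and with carbon shortage are often abundant in axillary buds that do not grow, so both genes were followed over bud position and phosphate supply.

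Axillary buds were taken from nodes 2, 3, 6 and 7 of hydroponically grown *Petunia hybrida*, inbred line V26, where bud 2 is near the base and buds 6 and 7 are near the top of the stem. In experiment 1, plants raised in high phosphate (high P, 250 µM) were moved for 24 h to low phosphate (low P, 5 µM) or to fresh high P medium. In experiment 3, plants raised in low P were moved for 24 h to high P or stayed in low P. Each experiment has 8 groups of 3 replicates, and a replicate is 1 pool of buds from 6 to 7 plants. Values were normalized counts, in which read numbers were scaled so that libraries of an experiment can be compared. They summed to between 39.7 M and 46.4 M per library in experiment 1 and between 83.0 M and 95.6 M in experiment 3, and the experiments were normalized separately, so levels were compared only within an experiment.

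Replicates of 1 group correlated over genes at 0.963 to 0.990 in experiment 1 and at 0.913 to 0.989 in experiment 3. The lowest value belonged to low P bud 3 of experiment 3, whose replicate 3 lay near bud 2 for both genes, and the values without it stand beside the main bud 3 results of experiment 3. Leaving out the 4 high P replicate 1 libraries of experiment 1 together changed no call of NAP or KIN10. Both of these alternatives were chosen after seeing the data.

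In experiment 1, NAP was abundant in buds 3 and 2 and close to 0 in buds 7 and 6. In low P, NAP had 0, 3.17 and 0 normalized counts in the 3 libraries of bud 7, 1.20, 4.39 and 2.01 in bud 6, 112, 225 and 57.6 in bud 3, and 120, 353 and 79.9 in bud 2. In high P it had 7.14, 1.74 and 1.87 in bud 7, 0, 2.37 and 1.08 in bud 6, 80.7, 410 and 59.4 in bud 3, and 181.6, 174 and 162.2 in bud 2. No library of buds 7 or 6 came above 7.14, and none of buds 3 or 2 fell below 57.6. Within bud 3 and low P bud 2 the pools spread widely, and replicate 2 was the highest of each of these 3 groups.

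**Figure D1:**
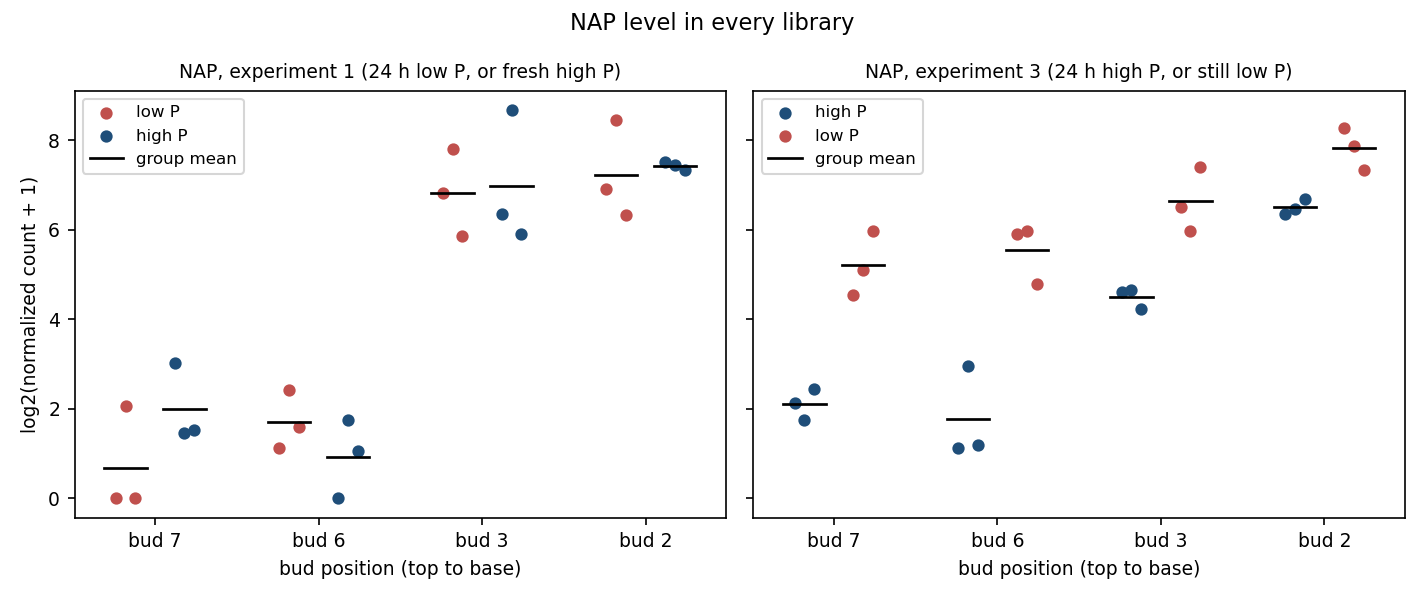
NAP level in every library, as log2(normalized count + 1) on the y axis, against bud position on the x axis, with experiment 1 on the left and experiment 3 on the right. Each point is 1 pool of buds and each black line a group mean of 3 pools. In experiment 1 all libraries of buds 7 and 6 sit at the bottom in both P treatments, and in experiment 3 every high P library lies below the low P libraries of the same bud.

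Differences were tested with limma on log2(normalized count + 1) over all 22363 or 22584 genes with a mean of at least 10, and a call needed a change past 2-fold together with a Benjamini-Hochberg adjusted p under 0.05. Bud 7 had less NAP than bud 2 by a log2 difference of -6.55 ± 0.75 (SE, n = 3 each) in low P (limma adjusted p = 2.15e-07) and -5.44 ± 0.75 in high P (limma adjusted p = 2.59e-06). Both were called, in comparisons where 20.6% and 20.5% of all tested genes were called lower. Bud 6 had less NAP than bud 3 by -5.12 ± 0.75 in low P (limma adjusted p = 6.14e-06) and -6.05 ± 0.75 in high P (limma adjusted p = 6.05e-07), against 18.9% and 21.6% of genes called lower. Bud 6 minus bud 2 was -5.52 ± 0.75 in low P and -6.50 ± 0.75 in high P, where 21.8% and 23.5% of genes were called lower. It is given without a test because the study picked the gene on that contrast. The tests of bud 7 against bud 2 and of bud 6 against bud 3 share libraries with it, so their p-values are not independent of this choice. Bud 3 and bud 2 overlapped and did not pass the test, with bud 3 minus bud 2 at -0.40 in low P (95% interval -1.97 to 1.17) and -0.45 in high P (-2.03 to 1.12), and these comparisons share the bud 2 libraries with those of bud 7. The commonest non-zero value of a library was 0.64 to 1.27 in this experiment, so the NAP levels of buds 7 and 6 are near the lowest measurable ones, and the size of their log2 differences depends on the 1 that was added.

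KIN10 split the buds in the same way over a narrower range. In low P of experiment 1 it had 90.8, 97.0 and 98.4 normalized counts in bud 7, 56.3, 84.4 and 66.5 in bud 6, 194, 241 and 261.7 in bud 3, and 250, 277 and 303 in bud 2. In high P it had 80.3, 91.6 and 88.98 in bud 7, 62.9, 52.5 and 40.3 in bud 6, 208, 204 and 189 in bud 3, and 292, 286 and 243 in bud 2. Every library of buds 7 and 6 was below every library of buds 3 and 2, and bud 6 was below bud 7 in both P treatments without overlap. In contrast to NAP, the pools of a group lay close together, with a pooled SD of 0.19 on the log2 scale against 0.99 for NAP.

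**Figure D2:**
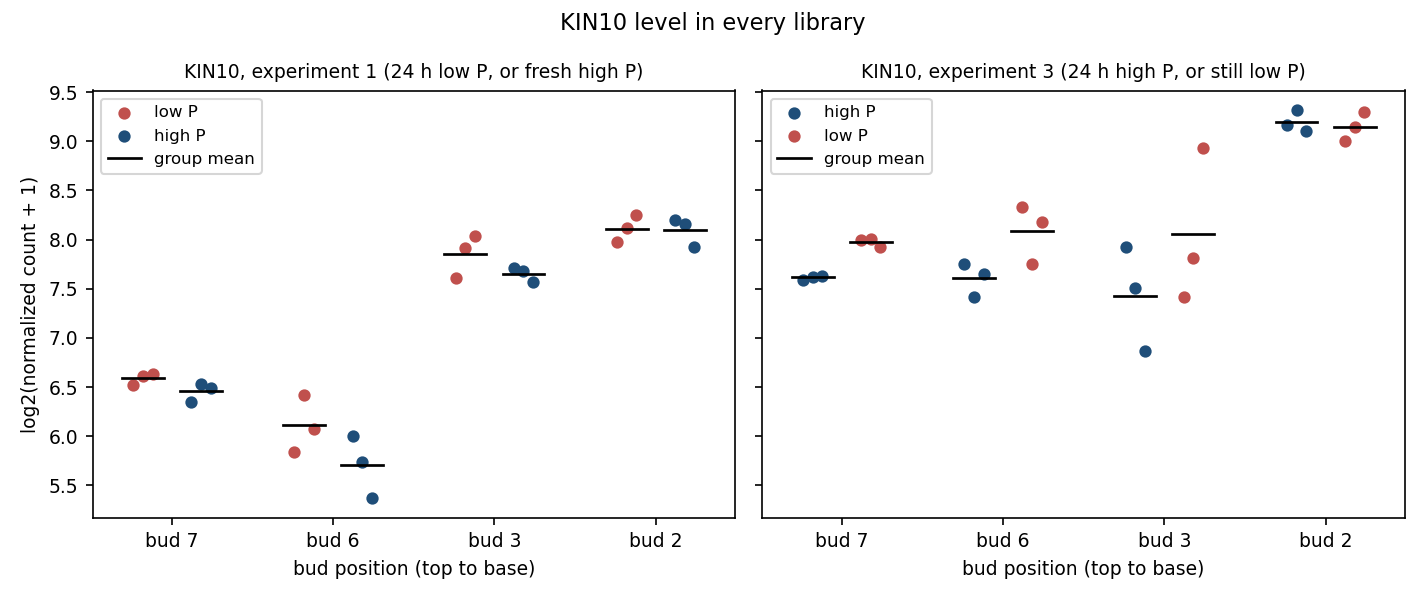
KIN10 level in every library, as log2(normalized count + 1) on the y axis, against bud position on the x axis, with experiment 1 on the left and experiment 3 on the right. Each point is 1 pool and each black line a group mean. In experiment 1 buds 7 and 6 lie below buds 3 and 2, while in experiment 3 only bud 2 and 1 low P pool of bud 3 stand above the rest.

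The transcript difference of KIN10 between bud 7 and bud 2 was -1.52 ± 0.17 in low P (limma adjusted p = 1.15e-07) and -1.64 ± 0.17 in high P (limma adjusted p = 4.93e-08), which are 2.87- and 3.11-fold lower levels in bud 7. Bud 6 was lower than bud 3 by -1.74 ± 0.17 in low P (limma adjusted p = 2.72e-08) and by -1.95 ± 0.17 in high P (limma adjusted p = 4.32e-09). All 4 were called. Of all genes, 20.6% (low P) and 20.5% (high P) were called lower in bud 7 than in bud 2. For bud 6 against bud 3 the shares were 18.9% and 21.6%. A lower difference than that of KIN10 was held by 14.7% (low P) and 13.6% (high P) of genes for bud 7 minus bud 2. For bud 6 minus bud 3 it was held by 11.4% and 11.8%. Bud 6 minus bud 2, the contrast on which this gene was also picked, was -2.0002 ± 0.17 in low P and -2.39 ± 0.17 in high P. The 4 tests above share the bud 2 or bud 6 libraries with it and are not independent of this choice. The higher level of bud 7 than bud 6 in high P, 0.75 ± 0.17, passed the adjusted p (limma adjusted p = 0.0127, 1.24% of genes called higher) but was under 2-fold, and in low P the difference of 0.48 ± 0.17 did not pass (limma adjusted p = 0.530, 0.0492% of genes called higher). Bud 3 minus bud 2 was -0.26 in low P (95% interval -0.61 to 0.09) and -0.44 in high P (-0.79 to -0.10), and neither was called. In high P the bud 3 and bud 2 libraries did not overlap.

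In experiment 3, NAP was lower in every bud after 24 h of high P than in buds that stayed in low P. High P bud 7 had 3.41, 2.36 and 4.43 normalized counts, against 22.5, 33.4 and 62.3 in low P bud 7. High P bud 6 had 1.18, 6.81 and 1.3002, against 59.4, 62.2 and 26.6 in low P bud 6. In both buds the groups lay far apart, and the low P libraries of this experiment held apical NAP well above the lowest measurable level. High P bud 3 had 23.6, 24.3 and 17.8, against 90.7, 62.3 and 169 in low P bud 3. High P bud 2 had 80.5, 87.9 and 102.2, against 311, 235 and 160 in low P bud 2. No bud had a high P library that reached its lowest low P library.

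Resupply was called for NAP in the 3 upper buds. The difference of high P minus low P was -3.10 ± 0.49 in bud 7 (limma adjusted p = 5.002e-04), a level 8.60-fold lower, where 3.04% of tested genes were called lower and 68 of 22584 genes had a lower difference. It was -3.80 ± 0.49 in bud 6 (limma adjusted p = 8.87e-05), 13.9-fold lower, where 5.76% were called lower and 76 genes had a lower difference. It was -2.13 ± 0.49 in bud 3 (limma adjusted p = 0.00691), 4.39-fold lower, where 4.95% were called lower, and -1.75 without low P bud 3 replicate 3 (limma adjusted p = 0.0472). Fitted to the 6 libraries of bud 3 alone, the same difference had a limma adjusted p of 0.290. In bud 2 it was -1.33 ± 0.49 (limma adjusted p = 0.0788), 2.51-fold lower and not called, where 1.56% of genes were called lower. This call turned with the settings, and passed with a pseudocount of 5, precision weights, quantile normalization or a fit to the 6 libraries compared. The commonest non-zero value of a library was 0.79 to 1.3 in experiment 3, so NAP of high P buds 7 and 6 was near the lowest measurable level. The size of the fall in these buds therefore depends on the 1 that was added.

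**Figure D3:**
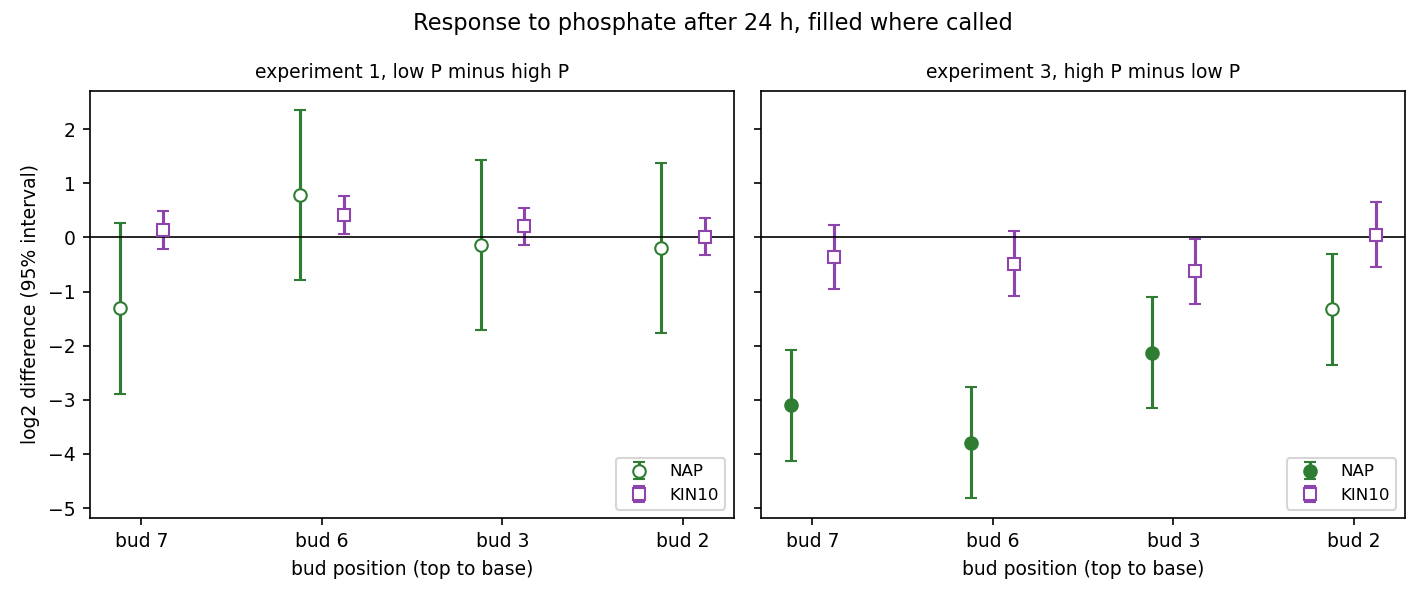
Log2 difference of NAP (circles) and KIN10 (squares) between P treatments on the y axis, for each bud on the x axis, as low P minus high P in experiment 1 on the left and high P minus low P in experiment 3 on the right. Bars are 95% intervals of the limma fit and filled symbols were called. NAP lies below 0 in all 4 buds of experiment 3, from -3.80 in bud 6 to -1.33 in bud 2, while KIN10 stays between -0.63 and 0.05.

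Whether the answer to resupply differed with position was tested as a difference of differences. For NAP the response of bud 6 minus that of bud 2 was -2.47 ± 0.69 (limma adjusted p = 0.354), with a 95% interval of -3.92 to -1.02, and that of bud 7 minus bud 2 was -1.77 ± 0.69 (limma adjusted p = 0.825). For bud 3 minus bud 2 it was -0.80 ± 0.69 (limma adjusted p = 0.768), and -0.42 without low P bud 3 replicate 3. None passed adjustment over all genes, so a stronger response in upper buds was not called, and only 3 genes of 22584 (0.0133%) were called for bud 6 minus bud 2, 1 gene (0.00443%) for bud 7 minus bud 2 and 0 for bud 3 minus bud 2. For KIN10 the same 3 differences were -0.53, -0.41 and -0.67 for buds 6, 7 and 3, each with an SE of 0.41, and none was called. The value for bud 3 was -0.23 without low P bud 3 replicate 3. For NAP, the sizes of the bud 6 and bud 7 values depend on the 1 that was added, as the falls in these buds do.

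KIN10 itself answered resupply weakly. High P bud 7 had 192, 196 and 197 normalized counts, against 255, 256 and 243 in low P bud 7. High P bud 6 had 214, 169 and 200, against 322, 214 and 289 in low P bud 6. In these 2 buds the high P libraries were lower without overlap, though in bud 6 the highest high P library (214.1) nearly met the lowest low P library (214.3). In bud 3 and bud 2 the treatments overlapped. High P bud 3 had 241.6, 181 and 115.4, against 170, 224 and 488 in low P bud 3, and high P bud 2 had 573, 637.9 and 551, against 512.3, 567 and 628 in low P bud 2. The log2 differences were -0.36 in bud 7 (95% interval -0.96 to 0.24), -0.48 in bud 6 (-1.08 to 0.12), -0.63 in bud 3 (-1.23 to -0.03) and 0.05 in bud 2 (-0.55 to 0.65). None was called, with limma adjusted p values of 0.393, 0.212, 0.106 and 0.931 in that order. Without low P bud 3 replicate 3, at 488 the highest of its group, the bud 3 difference was -0.19.

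Position still separated bud 2 from the top of the plant in experiment 3. NAP of bud 7 differed from bud 2 by -4.39 ± 0.49 in high P (limma adjusted p = 1.94e-06) and by -2.62 ± 0.49 in low P (limma adjusted p = 2.51e-04), where 19.3% and 16.5% of genes were called lower. KIN10 of bud 7 differed from bud 2 by -1.58 ± 0.29 in high P (limma adjusted p = 1.50e-04) and by -1.17 ± 0.29 in low P (limma adjusted p = 0.00189). All 4 were called. Bud 6 minus bud 2, described without a test, was -4.74 in high P and -2.27 in low P for NAP, and -1.59 and -1.06 for KIN10. In these comparisons 18.8% and 13.4% of genes were called lower. The bud 7 tests share the bud 2 libraries with this contrast.

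Bud 3 was next set against bud 2. In experiment 3 it fell below bud 2 in high P, by -1.998 ± 0.49 for NAP (limma adjusted p = 0.00189) and by -1.77 ± 0.29 for KIN10 (limma adjusted p = 1.08e-04), where 17.5% of genes were called lower. In low P, where 8.97% of genes were called lower, KIN10 was called at -1.09 ± 0.29 (limma adjusted p = 0.00803) and NAP was not, at -1.20 ± 0.49 (limma adjusted p = 0.0532). Without low P bud 3 replicate 3, NAP was called at -1.58 (limma adjusted p = 0.0127) and KIN10 stood at -1.53, and NAP was also called without low P bud 2 replicate 3 (-1.45, limma adjusted p = 0.0463). The KIN10 call in low P was lost without low P bud 3 replicate 1 (-0.78, limma adjusted p = 0.0670) or replicate 2 (-0.97, under 2-fold). In experiment 1, 1.55% of genes in low P and 0.868% in high P were called lower in bud 3 than in bud 2, and neither NAP nor KIN10 was among them. The experiments were not tested against each other.

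Each bud 3 library was also placed on a log2 scale that runs from 0 at the level of bud 2 to 1 at the mean level of the apical pair, buds 6 and 7. For KIN10 in high P of experiment 3, the bud 3 libraries lay at 0.80, 1.06 and 1.47, so that bud 3 was at the level of the apical buds. In low P they lay at 1.55, 1.19 and 0.19, where the last is replicate 3. For NAP they lay at 0.41, 0.40 and 0.50 in high P, at or a little below midway. In low P they lay at 0.54, 0.76 and 0.17, where the last is replicate 3, so the pools spread from near bud 2 to past midway. In experiment 1 the means of bud 3 were 0.15 for KIN10 and 0.07 for NAP in low P, and 0.22 and 0.08 in high P, near bud 2 in each case. High P bud 6 of experiment 3 had less NAP than bud 3 by -2.74 ± 0.49 (limma adjusted p = 0.00894, 0.505% of genes called lower), whereas KIN10 of these buds differed by 0.17 ± 0.29 (limma adjusted p = 0.885). The NAP call was lost without high P bud 3 replicate 2 (-2.66, limma adjusted p = 0.0590), high P bud 6 replicate 1 (-2.42, limma adjusted p = 0.0792) or replicate 3 (-2.46, limma adjusted p = 0.0570), and with precision weights or a fit to the 6 libraries compared. In low P bud 6 minus bud 3 was -1.08 ± 0.49 for NAP (limma adjusted p = 0.475, 0.686% of genes called lower) and -0.69 without low P bud 3 replicate 3.

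Phosphate withdrawal for 24 h in experiment 1 called neither gene. For NAP, low P minus high P was -1.31 in bud 7 (95% interval -2.88 to 0.26), 0.78 in bud 6 (-0.79 to 2.35), -0.15 in bud 3 (-1.72 to 1.42) and -0.20 in bud 2 (-1.77 to 1.37). These intervals are wide. A 2-fold change in either direction lies inside those of buds 3 and 2, a 2-fold lower level inside that of bud 7 and a 2-fold higher level inside that of bud 6. For KIN10 it was 0.13 in bud 7 (-0.21 to 0.48), 0.41 in bud 6 (0.06 to 0.76), 0.20 in bud 3 (-0.15 to 0.55) and 0.02 in bud 2 (-0.33 to 0.36). All 4 KIN10 intervals exclude a 2-fold change. Among all 22363 genes, 0 were called in bud 7, 0.00447% in buds 6 and 3 and 0.0134% in bud 2. Of these 8 differences, only KIN10 in bud 6 had an unadjusted limma p under 0.05.

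Taking all 4 buds in 1 test, an exact permutation test exchanged the P treatments within each bud in all 160000 ways (two-sided, 24 libraries, 6 tests with Benjamini-Hochberg adjustment). NAP was lower in high P of experiment 3 by a mean log2 difference of -2.59, 6.03-fold, with an exact permutation p of 1.25e-05, the smallest these exchanges can give (adjusted p = 3.75e-05). KIN10 was lower in high P of experiment 3 by -0.36, 1.28-fold (exact permutation p = 0.0143, adjusted p = 0.0287), and higher in low P of experiment 1 by 0.19, 1.14-fold (exact permutation p = 0.0203, adjusted p = 0.0304). Without low P bud 3 replicate 3 the differences of experiment 3 were -2.49 for NAP (exact permutation p = 1.25e-05) and -0.25 for KIN10 (exact permutation p = 0.0461). Both small KIN10 differences changed with the pools included. Without replicate 3 of every group the difference was -0.15 in experiment 3 (exact permutation p = 0.285) and 0.08 in experiment 1 (exact permutation p = 0.426), and without replicate 2 it was -0.43 (p = 0.0571 by the exact permutation) and 0.17 (p = 0.128 by the exact permutation). NAP in experiment 1 differed by -0.22 (exact permutation p = 0.593). The test takes pools of different buds as separate. The paper's number of seedlings per experiment is too small for every pool to come from its own plants. Pools therefore shared plants, and which ones is not stated, so these permutation p-values may be too small.

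Whether NAP changed more than KIN10 was asked with the ratio of NAP to KIN10 within a library, tested in the same way. The log2 ratio was lower in high P than in low P of experiment 3 by a mean of -2.24, 4.71-fold (exact permutation p = 1.25e-05, adjusted p = 3.75e-05). By bud it averaged -5.50 ± 0.35 (SD, n = 3) in high P against -2.76 ± 0.76 in low P of bud 7, and -5.84 ± 1.21 against -2.53 ± 0.82 in bud 6. In bud 3 it was -2.93 ± 0.34 in high P against -1.42 ± 0.47 in low P (-1.37 without replicate 3), and in bud 2 -2.69 ± 0.24 against -1.32 ± 0.63. The level of this ratio depends on the lengths of both transcripts and only its change is read here. In experiment 1 the ratio differed by -0.41 between low and high P (exact permutation p = 0.327).

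**Figure D4:**
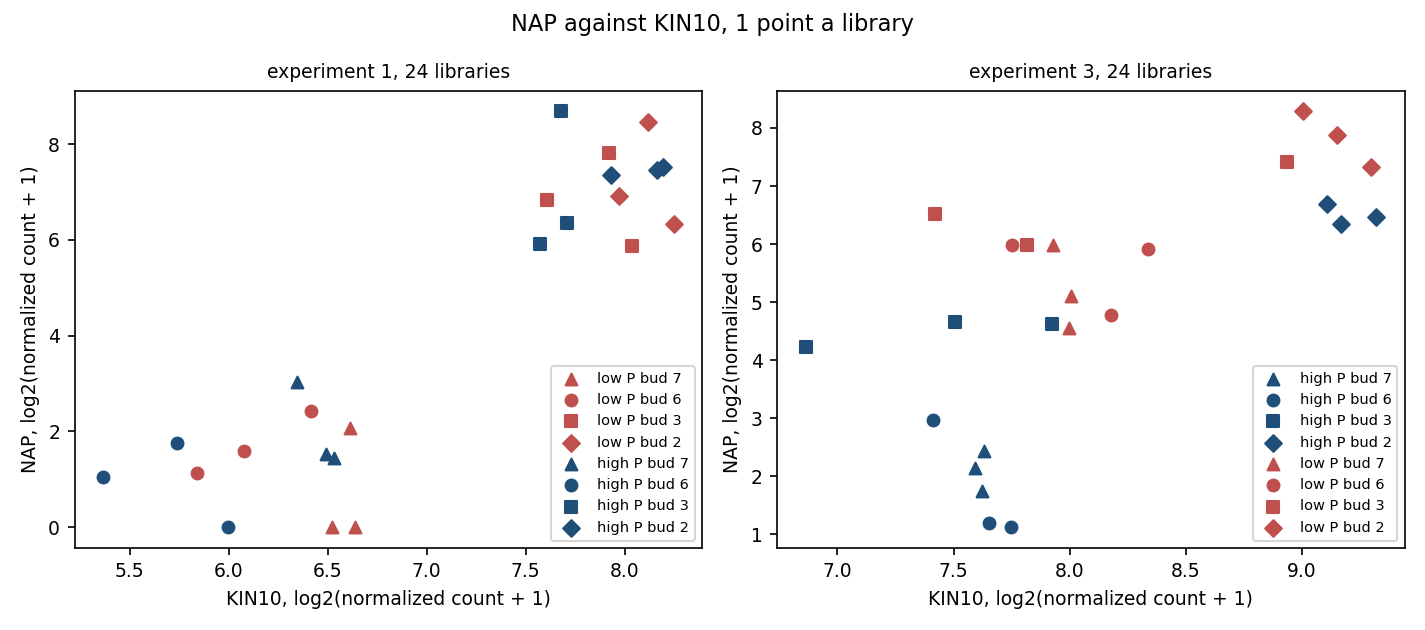
NAP on the y axis against KIN10 on the x axis, both as log2(normalized count + 1), with 1 point for each of 24 libraries of experiment 1 (left) and experiment 3 (right). Shapes give the bud and colours the P treatment. In experiment 1 the buds form 2 clouds, buds 3 and 2 at the upper right and buds 7 and 6 at the lower left, and in experiment 3 the high P libraries of each bud lie below its low P libraries on the NAP axis, while on the KIN10 axis those of buds 3 and 2 overlap.

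Across all 24 libraries, NAP and KIN10 had a Pearson r of 0.90 in experiment 1 and 0.69 in experiment 3 (Spearman rho 0.76 and 0.69). The libraries share bud positions, which form separate clouds, so these values mainly describe position. After the group means were removed, r was -0.03 in experiment 1 and 0.13 in experiment 3.

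Ordered by level in experiment 3, NAP was highest in low P bud 2, followed by low P bud 3, high P bud 2, low P bud 6, low P bud 7, high P bud 3, high P bud 7 and high P bud 6. Neighbours overlapped except between high P bud 2 and low P bud 6 and between high P bud 3 and high P bud 7. KIN10 was highest in bud 2 in either P treatment, and no library of another bud reached it, the nearest being low P bud 3 replicate 3 at 488 against 512.3 in the lowest bud 2 library. In experiment 1 the order of both genes had 1 gap between neighbours, which separated buds 3 and 2 from buds 7 and 6.

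Many other genes of bud dormancy were lower in the upper buds after resupply. A list of 42 petunia homologs of Arabidopsis genes that mark dormant buds was taken from the study, NAP being left out, and the study chose it on these samples, so its direction is not independent evidence. In high P bud 6 of experiment 3, 21 of 42 were lower than in low P and 0 were higher, where 5.76% of all genes were called lower, with a median log2 difference of -1.11 against -0.03 over all genes tested. The count was 12 without low P bud 6 replicate 1 and 13 without high P bud 6 replicate 1. In bud 7, 9 of 42 were lower (3.04% of all genes), and 4 without low P bud 7 replicate 2 or 5 without high P bud 7 replicate 1. In bud 3, 14 of 42 were lower (4.95% of all genes), but the count was 2 without low P bud 3 replicate 3, and 5 or 8 without high P bud 3 replicate 3 or replicate 1. In bud 2, 1 of 42 was lower (1.56% of all genes), and 0 were higher in any of these buds. In experiment 1 limma called 0 of the 41 tested in any bud for low P against high P, where 11 in bud 6, 2 in bud 2 and 1 in each of the other buds had an unadjusted p under 0.05.

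The members of that list with the largest fall in bud 6 included asparagine synthetase ASN1/DIN6 (Peaxi162Scf00540g00013.1), which in Arabidopsis is switched on by darkness and sugar shortage. It had 46.4 ± 9.02 normalized counts in high P against 5153 ± 3491 in low P (SD, n = 3 each), a log2 difference of -6.44 ± 0.79 (limma adjusted p = 5.91e-05). A late embryogenesis abundant protein gene (Peaxi162Scf00668g00002.1), of a family that protects cells from drying, had 0.753 ± 1.304 against 71.0 ± 61.7. AFP1 (Peaxi162Scf00667g00615.1), which in Arabidopsis restrains ABA signaling, had 93.6 ± 24.2 against 1032 ± 355, a difference of -3.41 ± 0.40. A further member, Peaxi162Scf00412g00073.1, encodes a protein of unknown function and had 9.30 ± 11.3 against 944 ± 1346. In bud 2 only ASN1/DIN6 of the 42 was called, with 1011 ± 212 in high P against 6874 ± 3142 in low P, and the call was lost when any 1 of the 6 libraries other than low P replicate 3 was left out.

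Other NAC genes moved in the same direction as NAP. Of 12 further NAC genes in the study's tables, 3 of which are also in the dormancy list, 8 were lower in high P than in low P bud 6 of experiment 3 and 0 were higher, against 5 in bud 3, 2 in bud 7 and 1 in bud 2. Of all genes, the share called lower was 5.76% in bud 6 and 4.95% in bud 3, while it was 3.04% in bud 7 and 1.56% in bud 2. The bud 3 count was 3 without low P bud 3 replicate 3, the bud 7 count ranged from 1 to 3 and the bud 2 count from 0 to 1 with 1 library left out. The bud 6 count was 3 without low P bud 6 replicate 1, 4 without high P bud 6 replicate 1 and 5 without high P bud 6 replicate 2. NAC072 (Peaxi162Scf00998g00126.1), an ABA-responsive factor in Arabidopsis, had 1.95 ± 2.34 in high P against 22.8 ± 21.7 in low P bud 6, and was not called without replicate 1 of either treatment. NAC6/ORE1 (Peaxi162Scf00129g00011.1), which in Arabidopsis drives leaf ageing, had 45.5 ± 23.1 against 175 ± 93.9, a difference of -1.89 ± 0.36 (limma adjusted p = 0.00164). NAC domain containing protein 3 (Peaxi162Scf00000g00481.1) and NAC domain protein 66 (Peaxi162Scf00888g00410.1) were lower by -2.63 and -1.94, the first not called without low P bud 6 replicate 1 (limma adjusted p = 0.0513). Between bud 7 and bud 2, 10 of 12 were lower in each P treatment of experiment 3, where 19.3% (high P) and 16.5% (low P) of all genes were. In experiment 1, 8 of 9 tested were lower in each P treatment, where 20.6% (low P) and 20.5% (high P) of all genes were. The study's tables list genes chosen on these samples, so these NAC counts are not independent evidence.

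The regulatory subunits of SnRK1 include beta subunits, which set where the complex works and what it binds. KING1 and PV42 are gamma-like proteins whose place in the plant complex is less certain, since it also uses a hybrid beta-gamma subunit. KING1 (Peaxi162Scf00089g00622.1) was lower in bud 7 than in bud 2 in all 4 comparisons, by -1.47 in high P and -1.02 in low P of experiment 3 and by -1.37 in low P and -1.60 in high P of experiment 1, and all 4 were called. Of all genes, 19.3% (high P) and 16.5% (low P) were called lower in experiment 3, and 20.6% (low P) and 20.5% (high P) in experiment 1. Of all genes tested in both experiments, 21.3% were called, higher or lower, in all 4 comparisons. In low P of experiment 3 the KING1 difference came under 2-fold without replicate 1 of bud 7 (-0.94) or of bud 2 (-0.95). Under resupply it was called lower in bud 6, with 418 ± 56.7 normalized counts in high P against 1083 ± 311 in low P (log2 difference -1.33 ± 0.33, limma adjusted p = 0.00639). It was also called in bud 3 (-1.12), though not without low P bud 3 replicate 3 (-0.63, limma adjusted p = 0.161) or high P bud 3 replicate 3 (-0.87, limma adjusted p = 0.0901), and it was not called in bud 7 (-0.98, under 2-fold) or bud 2 (-0.53). The gamma-like gene PV42 (Peaxi162Scf00207g00638.1), which is also in the dormancy list, was called lower in bud 7 than in bud 2 in all 4 comparisons, 3 of which lost the call without 1 or another library, low P of experiment 3 being the exception. Under resupply it was called in bud 3 (-1.503 ± 0.49) and not in bud 7 (-0.45), bud 6 (-1.23) or bud 2 (-1.09). The bud 3 call was lost without low P bud 3 replicate 3 (-0.79, limma adjusted p = 0.275) and without any 1 of the 3 high P bud 3 libraries.

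The beta subunit genes gave other values. The one most like Arabidopsis AT4G16360 (Peaxi162Scf00802g00238.1) was higher in bud 7 than in bud 2 of experiment 1, by 1.42 in low P and 1.21 in high P. Both were called, where 15.2% (low P) and 13.9% (high P) of all genes were called higher. In experiment 3 neither difference was called, with bud 7 minus bud 2 at 0.35 in high P (limma adjusted p = 0.0660) and -0.43 in low P (limma adjusted p = 0.0294, under 2-fold). In bud 2 of experiment 3 it had 935 ± 139 in high P against 2085 ± 360 in low P (log2 difference -1.15 ± 0.16, limma adjusted p = 2.62e-04), and it was not called in the other buds. The one most like AT5G21170 (Peaxi162Scf00062g00921.1) was called in none of these comparisons, with bud 7 minus bud 2 of experiment 3 at 0.52 (high P) and 0.84 (low P), both under 2-fold. In all, 1 of 4 subunit genes was lower under resupply in bud 6, 0 in bud 7 by limma (2 at an unadjusted p under 0.05), 2 in bud 3 (0 without low P bud 3 replicate 3) and 1 in bud 2, and 0 were higher. Of all genes, 5.76%, 3.04%, 4.95% and 1.56% were called lower in these buds in the same order.

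Of 5 trehalose-phosphate synthase (TPS) genes, TPS1 (Peaxi162Scf00022g02413.1) is the one whose Arabidopsis counterpart makes trehalose-6-phosphate, and the class II genes have a less certain enzyme role. Over position TPS1 was higher in upper buds of experiment 1. In low P it had a mean of 725 normalized counts in bud 7 against 268 in bud 2 (log2 difference 1.44 ± 0.10). In high P it had 676 against 244.9 (1.46 ± 0.10). Both were called, where 15.2% (low P) and 13.9% (high P) of all genes were called higher. In low P, 2 class II genes went the other way, Peaxi162Scf00421g00116.1 (-1.07) and Peaxi162Scf00457g00215.1 (-1.18). Both were called, where 20.6% of all genes were called lower. Only 1 TPS gene was called lower without replicate 1 or 2 of low P bud 2, or without replicate 1 of low P bud 7. In high P no class II gene was called between these buds, though 1 TPS gene was called lower without high P bud 2 replicate 3. In experiment 3 TPS1 had 1423 in bud 7 against 742 in bud 2 in high P, a difference of 0.94 ± 0.20 that was under 2-fold. TPS1 was called by resupply in no bud. A pair of class II genes was lower in high P than in low P of bud 6, Peaxi162Scf00457g00215.1 with 641 ± 119 against 1415 ± 203 and Peaxi162Scf00297g00098.1 with 215.01 ± 50.4 against 488 ± 117, where 5.76% of all genes were called lower. The second was not called without high P bud 6 replicate 1 (limma adjusted p = 0.0519). The first was also lower in bud 7 (-1.18 ± 0.25), where 3.04% were. Peaxi162Scf00421g00116.1 and Peaxi162Scf00202g00187.1 were called by resupply in no bud, with differences of -0.39 and -0.53 in bud 6.

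**Figure D5:**
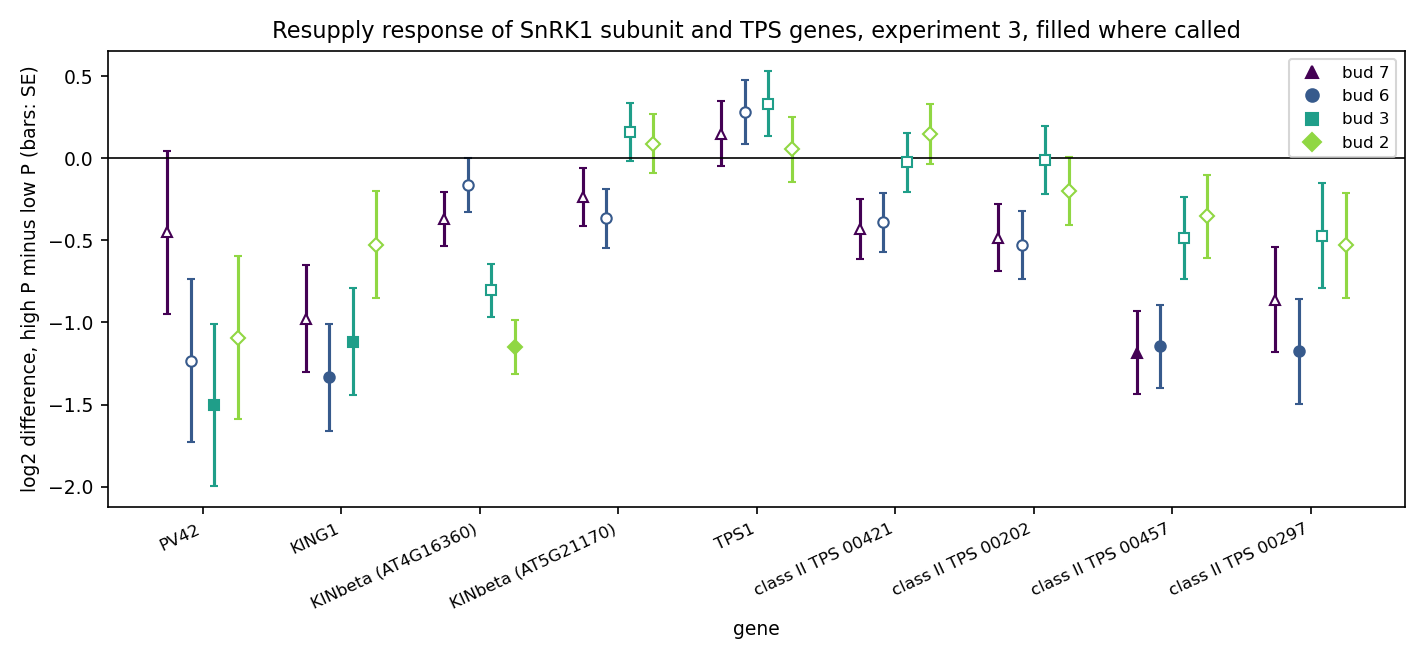
Log2 difference of high P minus low P in experiment 3 on the y axis for 4 SnRK1 subunit genes and 5 trehalose-phosphate synthase genes on the x axis, with 1 symbol for each bud and class II genes marked by their scaffold number. Bars are standard errors and filled symbols were called. KING1 is filled in buds 6 and 3, PV42 in bud 3, the beta subunit gene like AT4G16360 in bud 2, and 2 class II genes in bud 6, 1 of them also in bud 7.

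Lists of cell type markers were drawn from the study's tables, chosen on these samples, so their direction is not independent evidence. Markers of dividing cells were higher in the upper buds, where both genes were lower. All 10 of them, among them cyclins and B-type cyclin-dependent kinases, were called higher in bud 7 than in bud 2 in each of the 4 comparisons, where 15.2% of genes in low P and 13.9% in high P of experiment 1, and 13.4% in high P and 13.5% in low P of experiment 3, were called higher. Their summed normalized counts were 37222 to 38219 in low P bud 7 against 5610 to 8051 in low P bud 2 of experiment 1, and 35813 to 42282 against 6317 to 9771 in high P. In experiment 3 they were 94957 to 103309 in high P bud 7 against 33202 to 35470 in high P bud 2, and 90232 to 94349 in high P bud 6 against 43136 to 63860 in low P bud 6. Low P bud 3 replicate 3, which was high in NAP and KIN10, had 18582 against 86065 and 52157 in the other pools of its group. No dividing cell marker was at 0 in every library of a group. The 8 green leaf tissue markers summed to 50637 in that replicate, against 143067 and 136325 in the other pools, and in bud 6 to between 70247 and 122703 in high P against 131836 to 157635 in low P. The 11 markers of lignifying vascular tissue summed to 4286 to 5618 in high P bud 6 against 5927 to 6228 in low P bud 6.

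The lignifying markers also moved with position in experiment 3. Of the 11, 6 were lower and 2 higher in bud 7 than in bud 2 in high P (median log2 difference -2.40), and 8 were lower and 2 higher in low P (-3.30). Of all genes, 19.3% (high P) and 16.5% (low P) were called lower there, and 13.4% and 13.5% higher. In bud 3 against bud 2, 7 were lower in high P (-3.39, 17.5% of all genes) and 4 in low P (-1.07, 8.97% of all genes), with 2 higher in each. Their sums were 4430 to 5182 in high P bud 7 against 6339 to 16440.4 in high P bud 2, and 3311 to 6537 in low P bud 7 against 10017 to 19967 in low P bud 2. In low P of experiment 1, 2 of 8 tested were higher and 2 lower in bud 7 than in bud 2 (median 0.66). In high P 3 were higher and 2 lower (median 0.63). There 15.2% (low P) and 13.9% (high P) of all genes were called higher, and 20.6% and 20.5% lower. Under resupply 4 of 11 were lower in bud 3 (median -1.54), where 4.95% of all genes were. The 11 summed there to 3344 to 5339 in high P against 6058 to 7407 in low P. In buds 7, 6 and 2 limma called 0 of 11, where 1, 1 and 3 had an unadjusted p under 0.05. Green leaf tissue markers differed with position as well. Their median log2 difference of bud 7 minus bud 2 was 1.21 in low P and 0.56 in high P of experiment 3. In experiment 1 it was -0.88 in low P and -0.85 in high P. For bud 3 minus bud 2 it was 0.89 in low P and 1.61 in high P of experiment 3, and 0.22 and 0.12 in experiment 1. The part of cell makeup in the NAP and KIN10 differences was not tested, and in whole buds fewer cells of a type and less RNA per cell cannot be told apart.

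Genes whose pattern was most like each member were found by the smaller of its 2 Pearson r values over the 24 libraries of each experiment, among 21785 other genes tested in both. For NAP, the named genes with a description were a gene like tobacco hydrogen peroxide-induced 1 (Peaxi162Scf00133g00111.1, smaller r 0.95, rank 1), a homeobox-leucine zipper family gene (Peaxi162Scf00767g00212.1, 0.95, rank 2), a drought-responsive family gene (Peaxi162Scf00071g00430.1, 0.94, rank 5), ethylene-responsive transcription factor 1B (Peaxi162Scf01560g00009.1, 0.94, rank 7) and a rhodanese superfamily gene (Peaxi162Scf00300g00015.1, 0.94, rank 8). For KIN10 they were UDP-D-glucuronate 4-epimerase 6 (Peaxi162Scf00652g00014.1, 0.97, rank 1), which acts on cell wall sugars, a subtilase family gene (Peaxi162Scf00694g00438.1, 0.96, rank 12), purple acid phosphatase 18 (Peaxi162Scf00964g00140.1, 0.96, rank 16), a remorin family gene (Peaxi162Scf01969g00025.1, 0.96, rank 21) and catalase 2 (Peaxi162Scf00064g01212.1, 0.96, rank 23). These values share the libraries and the bud positions and are a description. By the same measure KIN10 ranked 4151st for NAP, at 0.69. The 41 dormancy genes measured in both had a median of 0.83 with NAP and 0.76 with KIN10, against -0.22 and -0.21 over all genes. The study chose that list on these samples and picked both members on bud 6 against bud 2. High medians follow from that choice and are not independent evidence.

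Both members lie on 1 scaffold of the genome assembly, Scf00222, by their identifiers. Of 60 genes of this scaffold tested in both experiments, 15 were called in all 4 comparisons of bud 7 against bud 2, and 21.3% of all genes tested in both were so called. Only SET domain protein 35 (Peaxi162Scf00222g00073.1) among the other 13 carries a description, and it was higher in bud 7 by 2.58 in high P and 2.51 in low P of experiment 3 and by 3.53 in low P and 3.62 in high P of experiment 1. Petunia has a second gene that resembles KIN10, and how reads were shared between the pair is uncertain here.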

How the data were processed

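Axillary buds 2, 3, 6 and 7 of 48 pools in 2 experiments were measured by RNA-seq. The deposited signal values are normalized counts. In the authors' pipeline, nf-core/rnaseq (1.4.2 and then 3.0 in the later experiment), Trim Galore 0.6.6 cut the reads, Salmon counted them on the genome of *Petunia axillaris*, and DESeq2 scaled each experiment. Whole reads could not be recovered, so no count model was used and depth is known only as the sum of normalized counts per library. Genes with a mean of at least 10 were fitted as log2(value + 1) in limma 3.58.1 (R 4.3.3) with a variance trend, 1 mean per group and all 24 libraries of an experiment, which share 1 error. Permutations were run in Python 3.11.15 with scipy 1.17.1, numpy 2.4.6 and pandas 2.3.3, and figures drawn with matplotlib 3.10.9. The limma fit was tested on simulated data, and its p-values measure the spread between pools. Plants stood in shared containers of solution, and P was set by the solution. How pools were spread over containers is not stated, so P treatment and container cannot be told apart here. Pools of 1 number deviated together (all 3 correlations above 0.1) in 8 of 10 position comparisons and 1 of 4 P comparisons of experiment 1, and in 1 of 10 and 0 of 4 of experiment 3. Nothing in the labels says that a number marks shared plants.

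Named genes are NAP and KIN10, from each list at most 4 members called with the largest difference in the P comparison of bud 6 in experiment 3, every member of lists of 5 or fewer, and the 5 described genes most like each member. Gene names and descriptions came from the study's tables and figures. The members, lists and tests were chosen with earlier results of these data known. Alternatives covered the pseudocount, filter, weights, scaling, replicate block, libraries fitted and each library left out. Sequences of the genes were not used here.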

Additional observations from a re-analysis of the deposited data

How the results depend on the processing

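Most values for NAP and KIN10 kept their direction and their side of the threshold: 714 of 753 results under alternatives did so, with a pseudocount of 0.5, upper quartile scaling and no filter among the settings that changed none. The replicate block, which adds the pool number to the fit, changed no call of either gene (68 of 68), and with it the dormancy list had 2 genes called in bud 2 of experiment 3 against 1 without it, and the SnRK1 list 2 in bud 6 against 1. The cause of the changes below was not tested.

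In bud 6 minus bud 2, described without a test, a pseudocount of 5 gave NAP -4.87 in high P and -4.39 in low P of experiment 1 and -3.62 in high P of experiment 3, and quantile normalization gave -5.11, -4.44 and -3.68. It gave KIN10 -1.82 in high P and -1.55 in low P of experiment 1. In experiment 3, NAP of bud 6 minus bud 3 in high P (-2.74) was no longer called with precision weights (limma adjusted p = 0.261) or with only the groups compared (limma adjusted p = 0.117), and ranged from -3.34 to -2.42 with 1 library left out. NAP of bud 3 minus bud 2 in low P became called with a pseudocount of 5 (-1.16) and with precision weights (-1.20), with a range of -1.58 to -0.87. KIN10 of the same buds (-1.09) was lost with only the groups compared (limma adjusted p = 0.209), with a range of -1.53 to -0.78. NAP after resupply in bud 2 became called with a pseudocount of 5 (-1.29), precision weights (-1.33), quantile normalization (-1.58) and only the groups compared (-1.33), and in bud 3 (-2.13) it was lost with only the groups compared. The KIN10 difference over all 4 buds lost its call without replicate 2 (0.17 in experiment 1 and -0.43 in experiment 3) and without replicate 3 (0.081 and -0.15), and was 0.32 and -0.49 without replicate 1.

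Differences that were not called changed sign when 1 library was left out. In experiment 1 NAP of bud 3 minus bud 2 ranged from -1.30 to 0.080 in high P and from -0.89 to 0.21 in low P, and low P minus high P ranged from -0.81 to 0.25 in bud 2 and from -0.68 to 0.70 in bud 3. KIN10 in bud 2 ranged from -0.067 to 0.086. The NAP response of bud 3 minus that of bud 2 ranged from -0.48 to 0.90, and was -0.30 without the 4 high P replicate 1 libraries. In experiment 3 KIN10 of bud 6 minus bud 3 ranged from -0.11 to 0.42 in high P and from -0.29 to 0.47 in low P, bud 7 minus bud 6 from -0.085 to 0.083 in high P and from -0.28 to 0.013 in low P (0.0022 with quantile normalization), and resupply in bud 2 from -0.027 to 0.12 (-0.029 with quantile normalization).

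Counts that moved by more than 1.5 times included the dormancy list in bud 2, with 1 gene called in the fit as reported against 7 with only the groups compared and 3 with precision weights or quantile normalization, and the other NAC genes in bud 6, with 8 against 4 with precision weights or quantile normalization. The SnRK1 list in bud 6 had 1 against 2 with only the groups compared, and the TPS list in bud 6 had 2 against 1 with quantile normalization. With 1 library left out, the dormancy list fell under resupply to as few as 12 genes for bud 6 (21 as reported), 2 for bud 3 (14), 4 for bud 7 (9) and 0 for bud 2 (1), the other NAC genes to 3 for bud 6 (8), 3 for bud 3 (5), 1 for bud 7 (2) and 0 for bud 2 (1), the SnRK1 list to 0 in bud 3 (2), and the TPS list to 1 in bud 6 (2). In high P bud 7 against bud 2 of experiment 3, quantile normalization or leaving out 1 library gave 1 SnRK1 gene (2 as reported) and 1 TPS gene (0 as reported). NAP near 0 in apical buds is limited by depth, and its log2 differences there depend on the pseudocount.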
